A study of Mus musculus with 6 samples.

Results

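The module described here is a group of 40 transcripts of proteins that adult hepatocytes make in bulk: plasma carriers, apolipoproteins, clotting factors and protease inhibitors, with the fetal form Afp and the intracellular proteins Fabp1 and Cyp2e1. The members were found by gene symbol among the 18518 gene symbols of the table, and all 40 had a row. The members were chosen by their known role in liver and by FPKM values of the comparison reported here, knockout against WT, seen earlier; the rule is a list of symbols and has no threshold. The cells are E14Tg2A, a mouse embryonic stem cell line, and RNA was sequenced from 3 wild-type (WT) libraries and from 3 libraries of cells with a CRISPR/Cas9 disruption of Bach1 (BACH1-KO). Both genotypes were kept for 2 days in medium with 10% serum and leukemia inhibitory factor at 200 units/ml. Guides were delivered on a transfected plasmid, and knockout cells were selected with puromycin and sorted as single-cell clones. How many clones the 3 knockout libraries represent, and whether WT cells went through the same selection, is not given in the sources used here. The labels also do not say whether the 3 libraries of a genotype are separate cultures, so their spread may be technical.

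Hepatocytes secrete most proteins of blood plasma, with albumin the most abundant of them. The transcription of these genes in liver is known to depend on a shared set of factors, among them HNF1, HNF4, the C/EBP proteins and forkhead factors. The fetal liver and the visceral endoderm of the yolk sac make alpha-fetoprotein (Afp) in place of much of the albumin, and Afp is silenced in liver after birth. Visceral endoderm also makes Ttr, Apoa1, Apob and Trf, so those members alone do not mark hepatocytes. Undifferentiated embryonic stem cells are not known to make these proteins in quantity.

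The sequence just before the transcription start of 4 members shows motifs that part of these genes share. Each stretch is the 120 bases upstream of the start (RefSeq, GRCm38.p6, written 5′ to 3′ on the gene's strand), with capitals for exact matches on either strand to the HNF1 core, the C/EBP core or the TATA box. Alb lies at chr5:90460750-90460869 (plus strand), Afp at chr5:90490594-90490713 (plus strand), Fgb at chr3:83049864-83049983 (minus strand) and Serpina1e at chr12:103956898-103957017 (minus strand).
Alb: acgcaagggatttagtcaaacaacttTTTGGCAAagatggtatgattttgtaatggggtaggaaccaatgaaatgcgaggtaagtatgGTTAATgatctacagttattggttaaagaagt
Afp: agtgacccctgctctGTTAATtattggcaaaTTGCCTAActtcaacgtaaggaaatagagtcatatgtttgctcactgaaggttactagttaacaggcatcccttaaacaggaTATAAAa
Fgb: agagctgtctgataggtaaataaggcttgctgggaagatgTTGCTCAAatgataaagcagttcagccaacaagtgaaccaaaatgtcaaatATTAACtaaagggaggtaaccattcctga
Serpina1e: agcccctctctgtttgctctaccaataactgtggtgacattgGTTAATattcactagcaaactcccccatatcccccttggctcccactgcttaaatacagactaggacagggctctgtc
Alb, Fgb and Serpina1e were high in the knockout libraries. Afp, the neighbour of Alb on chromosome 5 with matches to the HNF1 and C/EBP cores at other positions upstream, was listed at 0 there. Not every high member holds such matches in this stretch. That of Apoa1 (knockout mean 83.8 FPKM) held no match to these motifs, and that of Cyp2e1 (35.6 FPKM) held only a TATA box.

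Of the 40 members, 33 had an entry in the RefSeq promoter table. In the 250 bases before a start, GTTAAT, the HNF1 core, was found in 13 of the 33 members (39.4%), against 7.49% of the 27025 genes in the table, and 5 of those 13 are the near-identical Serpina1 copies. TTGCNNAA, the C/EBP core, was found in 13 members (39.4%), against 10.8% of all genes. The TATA box TATAAA was found in 8 members (24.2%, against 14.3%). TGTTTAC, a forkhead motif, was found in 3 members (9.09%, against 3.54%). CAAAGTCCA, an HNF4 motif, was in none of the 33 and in 0.451% of all genes. TGACNNNGC, the core of the antioxidant response element that BACH1 and NRF2 are known to bind, was in 6 members (18.2%, against 11.5%): Ahsg, Ambp, Fabp1, Fetub, Hpx and Itih3. Both strands were searched, matches of different motifs may overlap, and a match is a string of letters and not a measured binding site.

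Nearly the whole module was close to 0 in WT and present in every knockout library. The summed level of the 40 members was 0.00272%, 0.00298% and 0.00429% of all FPKM (fragment counts scaled to transcript length and to the mapped fragments of the library) in the WT libraries. In the knockout libraries it was 0.186%, 0.195% and 0.193%. The means were 0.00333% ± 0.000843 and 0.191% ± 0.00455 (SD, n = 3 per group), a ratio of 57.4. In 39 of the 40 members every knockout library was above every WT library, a pattern that 38.9% of all 18518 symbols showed. The members were put together with this difference already known, so these values describe the module and no test was made on it.

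**Figure D1:**
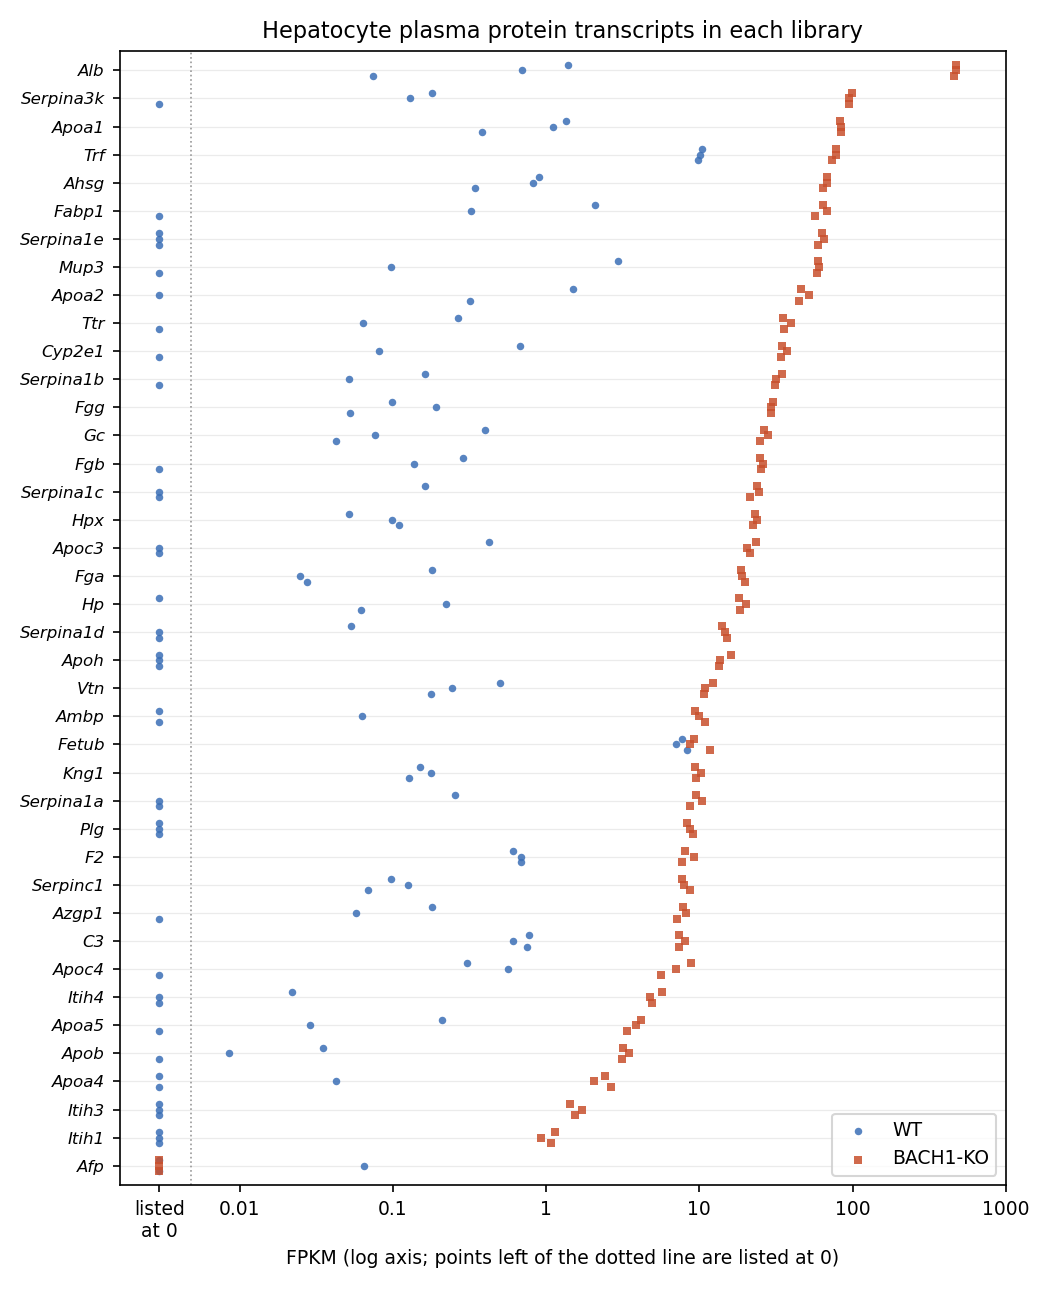
FPKM of each of the 40 members (rows, ordered by mean in BACH1-KO) in the 3 WT libraries (blue circles) and the 3 BACH1-KO libraries (orange squares) on a log axis; points left of the dotted line are listed at 0. The knockout points lie close together for each gene and above the WT points in all rows but Afp, and Trf and Fetub are the rows with WT values of several FPKM in all 3 libraries.

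Alb, the main carrier of fatty acids and the chief osmotic protein of plasma, was the highest member (chromosome 5, 90460870 to 90476602, mm10). It was at 0.0738, 0.701 and 1.39 FPKM in WT and at 461, 471 and 471 FPKM in knockout. Relative to their mean the knockout libraries differed far less from each other than the WT libraries did, and the groups did not overlap. By mean level Alb ranked 200 among all symbols in the knockout libraries and made up 32.0% of the summed module there. Its own coefficient of variation over the knockout libraries was 1.26%.

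Afp, the fetal counterpart of albumin, lies 3′ of Alb (90490714 to 90508907) and was the exception. It was listed at 0 in all 3 knockout libraries and in 2 WT libraries, with 0.0651 FPKM in the second WT column. The adult member of this gene pair was thus at its highest levels in libraries in which the fetal member was not detected. The next gene on that side, Afm, which encodes another albumin relative of plasma, was listed at 0 in WT and at 1.31, 0.798 and 1.04 FPKM in knockout. On the other side Ankrd17, a widely expressed gene, had a mean of 15.6 FPKM in WT and 11.3 FPKM in knockout.

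The other carriers covered a wide range of levels. Ahsg (fetuin-A, an inhibitor of calcification) was at 0.344, 0.818 and 0.902 FPKM in WT and 64.6, 68.0 and 68.5 FPKM in knockout. Mup3, a major urinary protein that carries pheromones, was listed at 0 in the first WT library, at 0.0973 and 2.96 FPKM in the others, and at 58.3, 60.2 and 59.9 FPKM in knockout. Ttr (transthyretin, the carrier of thyroxine and of retinol-binding protein) had 0, 0.0637 and 0.266 FPKM in WT and 36.0, 39.7 and 34.9 FPKM in knockout. None of these 3 overlapped between genotypes, and the third WT column was the highest of the WT libraries for each. Gc (vitamin D-binding protein), Hpx (hemopexin, which binds free heme) and Hp (haptoglobin, which binds free hemoglobin) were lower: Gc and Hpx had knockout means of 26.4 ± 1.61 and 23.1 ± 0.555 FPKM, and Hp was at 18.4, 20.3 and 18.3 FPKM. Ambp, the precursor of alpha-1-microglobulin and bikunin, and Azgp1, zinc-alpha-2-glycoprotein, had means of 10.1 ± 0.719 and 7.71 ± 0.556 FPKM. In WT these 5 genes stayed at or below 0.401 FPKM in every library.

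Trf and Fetub were expressed in WT as well. Trf (transferrin, the iron carrier) was at 9.86, 10.1 and 10.5 FPKM in WT and 73.9, 77.6 and 77.8 FPKM in knockout, a ratio of means of 7.55. Fetub (fetuin-B, a relative of Ahsg) was at 8.32, 7.10 and 7.71 FPKM in WT and 11.8, 8.75 and 9.30 FPKM in knockout. Its groups came within 1 FPKM of each other without overlapping, and its ratio of means, 1.29, was the lowest of the 39 members that were higher in knockout. Trf values may include fragments of an overlapping annotated transcript, Gm20425, which holds 79.8% of the 50-base windows of the Trf transcript.

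Among the apolipoproteins, the protein parts of plasma lipoproteins, the high-density members were the most abundant. Apoa1, the main protein of high-density lipoprotein, was at 0.381, 1.11 and 1.35 FPKM in WT and 84.3, 84.3 and 82.9 FPKM in knockout. Apoa2, also on those particles, was at 0.317, 0 and 1.50 FPKM in WT and 44.8, 51.7 and 46.1 FPKM in knockout. Apoc3, an inhibitor of triglyceride clearance, was listed at 0 in 2 WT libraries, at 0.425 FPKM in the other, and at 21.3, 20.4 and 23.4 FPKM in knockout. For all 3 the lowest knockout library was far above the highest WT library. Apoh was listed at 0 in every WT library and had a mean of 14.4 ± 1.43 FPKM in knockout. Apoc4 had a mean of 7.15 ± 1.59 FPKM, Apoa5 of 3.80 ± 0.403 FPKM, Apob (the scaffold of very low-density lipoprotein) of 3.25 ± 0.181 FPKM and Apoa4 of 2.37 ± 0.288 FPKM. Apoc4 varied more between knockout libraries than any other member present there, with a coefficient of variation of 22.3%.

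Apoa1, Apoc3, Apoa4 and Apoa5 lie in 1 cluster on chromosome 9 (46228630 to 46271921), and the levels of its neighbours moved little. Sik3, on 1 side, had means of 5.42 FPKM in WT and 6.48 FPKM in knockout. Zpr1, 1143 bases from the other end of the cluster, had means of 33.0 and 28.8 FPKM. The large difference between genotypes was therefore seen in the 4 cluster genes and not in the genes on either side of them.

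The fibrinogen genes Fga, Fgb and Fgg encode the 3 chains of the clot protein and lie together on chromosome 3 (83007724 to 83049863). Fgg was at 0.0529, 0.191 and 0.0995 FPKM in WT and 29.2, 29.2 and 30.4 FPKM in knockout. Fgb was at 0, 0.138 and 0.287 FPKM in WT and 25.5, 26.0 and 25.1 FPKM in knockout. Fga was at 0.0274, 0.0248 and 0.181 FPKM in WT and 19.8, 19.1 and 18.8 FPKM in knockout. The chains kept nearly fixed proportions across the knockout libraries: Fga made up 25.3% to 26.6% of their sum and Fgg 39.2% to 41.0%, with Fgb between them in each library. Of the neighbours, Plrg1, a splicing factor gene 5675 bases away, had means of 102 FPKM in WT and 94.2 FPKM in knockout. On the other side Lrat, which esterifies retinol, was low but higher in each knockout library, with means of 0.0278 and 0.232 FPKM.

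Other clotting and clot-dissolving factors were lower than fibrinogen. Plg (plasminogen) was listed at 0 in every WT library and was at 9.15, 8.66 and 8.35 FPKM in knockout. F2 (prothrombin) was at 0.686, 0.690 and 0.610 FPKM in WT and 7.68, 9.19 and 8.02 FPKM in knockout. Kng1 (kininogen) had a knockout mean of 9.71 ± 0.473 FPKM, Serpinc1 (antithrombin) of 8.14 ± 0.548 FPKM and Vtn (vitronectin) of 11.3 ± 0.842 FPKM. In F2 the 3 WT libraries were close to each other, unlike in most members, where the WT values were scattered or listed at 0.

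The Serpina1 copies, which encode forms of alpha-1-antitrypsin, the main inhibitor of neutrophil elastase in plasma, were nearly absent in WT. Serpina1e was listed at 0 in all WT libraries and was at 59.2, 65.2 and 63.7 FPKM in knockout. Serpina1b was at 0, 0.0520 and 0.163 FPKM in WT and 31.2, 31.8 and 34.5 FPKM in knockout. Serpina1c, Serpina1d and Serpina1a had knockout means of 23.4 ± 1.62, 14.7 ± 0.618 and 9.54 ± 0.805 FPKM, and in WT each was above 0 in the third column only. Serpina1e held 43.5% to 44.4% of the summed level of the 5 copies and Serpina1a 6.44% to 7.07%. Serpina3k, a related inhibitor gene on the same chromosome, was the second highest member, at 0, 0.129 and 0.180 FPKM in WT and 94.9, 94.5 and 99.3 FPKM in knockout. The measured genes on either side of the Serpina1 cluster, also of the serpin family, were low: Serpina6 (corticosteroid-binding globulin, from liver) and Serpina11 were listed at 0 in WT. In knockout Serpina6 had a mean of 0.977 FPKM and Serpina11 was at 0.384, 0.336 and 0.331 FPKM.

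How fragments were divided among the Serpina1 copies is uncertain, because their coding sequences are 96.3% to 98.5% identical. Of the 50-base windows of each annotated transcript (GENCODE M21), between 35.6% (Serpina1e) and 74.2% (Serpina1c) also occur in another gene. The 60 bases in which the copies differ most are printed here, coding bases 1101 to 1160 of 1242, with capitals at the 18 positions where the copies are not all alike. They lie in exons on the minus strand of chromosome 12 (mm10), that of Serpina1e at chr12:103947100-103947159.
Serpina1a: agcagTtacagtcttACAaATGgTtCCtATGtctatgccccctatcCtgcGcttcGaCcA
Serpina1b: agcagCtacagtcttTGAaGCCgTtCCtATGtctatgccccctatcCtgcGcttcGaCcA
Serpina1c: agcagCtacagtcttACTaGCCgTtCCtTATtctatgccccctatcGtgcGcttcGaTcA
Serpina1d: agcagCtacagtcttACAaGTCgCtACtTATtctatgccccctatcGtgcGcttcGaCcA
Serpina1e: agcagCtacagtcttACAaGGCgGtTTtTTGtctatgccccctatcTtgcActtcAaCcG
Over the whole coding sequence the 5 copies differ at 86 positions. The summed FPKM of the copies depends on this division through their transcript lengths, from 1361 bases (Serpina1c) to 1762 bases (Serpina1b) in this annotation. It also depends on the pseudogene Gm8893, which shares windows with them. The sum was 136, 147 and 146 FPKM in the knockout libraries. For Mup3 15.6%, for Kng1 18.0% and for Serpina3k 14.0% of windows occur in other genes, mostly relatives of the same family.

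The remaining members were lower or intracellular. Fabp1, the liver fatty acid-binding protein, was at 0, 0.323 and 2.09 FPKM in WT and 56.9, 67.9 and 64.2 FPKM in knockout. Cyp2e1, a cytochrome P450 that oxidises ethanol, was at 0, 0.0812 and 0.676 FPKM in WT and 34.4, 37.6 and 34.7 FPKM in knockout. C3, the central complement protein, was at 0.752, 0.611 and 0.770 FPKM in WT and 7.35, 8.07 and 7.39 FPKM in knockout. Fabp1 and Cyp2e1 are not secreted, but both were put in the module with their difference already known. Itih4, Itih3 and Itih1, heavy chains of the inter-alpha-trypsin inhibitors that stabilise hyaluronan, had knockout means of 5.13 ± 0.490, 1.57 ± 0.136 and 1.05 ± 0.115 FPKM.

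The make-up of the module was nearly the same in the 3 knockout libraries. Of their summed level, major carriers held 55.0%, protease inhibitors 16.4%, apolipoproteins 12.6% and clotting and related factors 8.25%. The 10 highest members together held 72.6%. Over the 34 members of at least 5 FPKM in knockout the median coefficient of variation was 5.77%, beside 3.57% for all 8631 genes of that level. The second knockout column was the highest of the 3 for 19 members, the third for 12 and the first for 8.

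The WT libraries were unlike each other in their traces of the module. Of the 35 members above 0 in at least 1 WT library, the third column was the highest for 24, the second for 9 and the first for 2. Without Trf, Fetub and Mup3, the members with a WT mean of 1 FPKM or more, the other 37 summed to 3.23, 6.71 and 13.3 FPKM in the WT libraries, while their knockout sums were 1281, 1338 and 1326 FPKM. In the third column Mup3, Fabp1 and Apoa2 stood above Alb, an order not seen in knockout. These are levels near the lower end of the table, where few fragments stand behind a value.

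**Figure D2:**
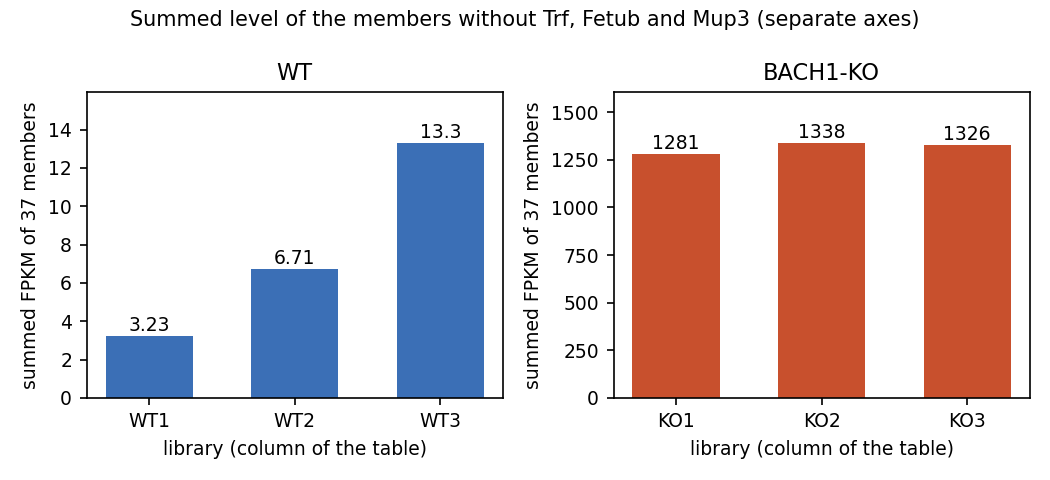
Summed FPKM of 37 members (without Trf, Fetub and Mup3) in each WT library (left, blue) and each BACH1-KO library (right, orange), with separate axes that both start at 0. The WT sums range from 3.23 to 13.3 FPKM and the knockout sums from 1281 to 1338 FPKM.

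Relative depth overlapped between the genotypes, whereas the level of low genes did not. Relative depths, read from the steps of low FPKM values, were 1.00, 1.10 and 1.06 in WT and 1.17, 1.18 and 1.01 in knockout; the absolute depth is unknown. The 5182 genes with a mean under 0.5 FPKM had a median between 0.0217 and 0.0253 FPKM in each WT library and between 0.0978 and 0.0990 FPKM in each knockout library; the part of this in the low members was not tested. Markers of embryonic stem cells were abundant in both genotypes, for example Pou5f1 with means of 1377 and 1115 FPKM and Dppa5a with 6606 and 4284 FPKM. Bach1 transcript itself was at 7.97, 8.39 and 8.47 FPKM in WT and 10.5, 10.4 and 10.4 FPKM in knockout, so the transcript was not lower, and whether the edit disrupts the protein cannot be read from these values. In bulk libraries, a change in the share of cells that make a transcript cannot be told apart from a change in its level per cell.

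To set the module beside other genes that were near 0 in WT, all 3939 genes with a WT mean under 0.1 FPKM were taken. Their median level in knockout was 0.0719 FPKM, and 4.72% of them reached 1 FPKM and 0.406% reached 10 FPKM. Of the 20 members in this class, 19 reached 1 FPKM, 9 reached 10 FPKM, and the median was 9.13 FPKM. The members were chosen with these levels known, so nothing is read from their place above the other genes of this class. Of the 186 genes that reached 1 FPKM, 19 were members, 74 stood on the lists of other hepatocyte genes, and 93 on neither.

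The other hepatocyte genes were taken from lists that hold no member. A limma test of the 12187 genes averaging 1 FPKM or more over the 6 libraries called 77.0% of them at an adjusted p under 0.05, 37.3% higher and 39.7% lower in knockout, with a median log2 difference of -0.01. In the same fit 37 members were tested, 34 of them only through their level in knockout, and all 37 were called higher; from this count nothing is read, since the rule used this contrast. The median log2(FPKM + 1) difference was 4.19 over those 37 and 3.94 over all 40 members.

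Enzymes and transporters of hepatocytes that were low in WT were mostly higher in knockout, while those expressed in WT moved in both directions. Of 75 such genes 50 were tested: 43 of these rose, 5 fell and 2 missed the threshold, and the list had a median log2 difference of 1.93. Of the 50, 37 had a WT mean under 1 FPKM and passed the filter on low values only through their knockout level, so their direction was set by the filter. Pck1, Bhmt, Adh1 and Ces3a are among these 37, and nothing is read from their adjusted p. Pck1, the rate-limiting enzyme of gluconeogenesis, was at 0, 0.0251 and 0.130 FPKM in WT and 14.0, 13.5 and 14.7 FPKM in knockout (log2 difference 3.84, SE 0.08, adjusted p = 1.28e-08). Bhmt, which remethylates homocysteine, rose from 0.204 to 16.1 FPKM (adjusted p = 1.45e-08) and Adh1, an alcohol dehydrogenase, from 0.117 to 8.69 FPKM (adjusted p = 1.95e-08). Ces3a, a carboxylesterase, was listed at 0 in WT and was at 9.41, 9.61 and 9.20 FPKM in knockout (adjusted p = 1.21e-08). Of the 13 tested enzymes with a WT mean of 1 FPKM or more, 6 rose, 5 fell and 2 missed the threshold, with a median log2 difference of 0.09. Among them Cyp27a1, a bile acid enzyme, rose from 2.36 to 8.51 FPKM (adjusted p = 4.15e-07), and Gstp1, a glutathione transferase, fell from 162 ± 15.2 to 103 ± 21.2 FPKM (adjusted p = 0.00189). Of the 48 enzyme genes with a WT mean under 0.1 FPKM, 37 reached 1 FPKM in knockout.

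Further secreted hepatocyte proteins were mostly higher in knockout. Of 78 listed genes 72 had a row and 41 were tested, of which 40 rose and 1 did not pass, with a median log2 difference of 1.57. Of the 41, 31 passed the filter only through their knockout level, Mug1, Pzp and Orm1 among them, so their direction was set by the filter. Of the other 10, 9 rose, with a median log2 difference of 0.70. Mug1 and Pzp, relatives of alpha-2-macroglobulin, rose from 0.0320 to 8.22 FPKM and from 0.258 to 8.47 FPKM (adjusted p = 2.07e-08 and 4.57e-08). Orm1, an acute-phase glycoprotein, was listed at 0 in WT and had a knockout mean of 8.25 ± 1.39 FPKM. Apoe, which embryonic stem cells also express, had the highest level of the list and moved little, from 667 ± 17.6 to 865 ± 14.7 FPKM (log2 difference 0.38, adjusted p = 1.08e-05). Of the 51 genes with a WT mean under 0.1 FPKM, 33 reached 1 FPKM in knockout.

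**Figure D3:**
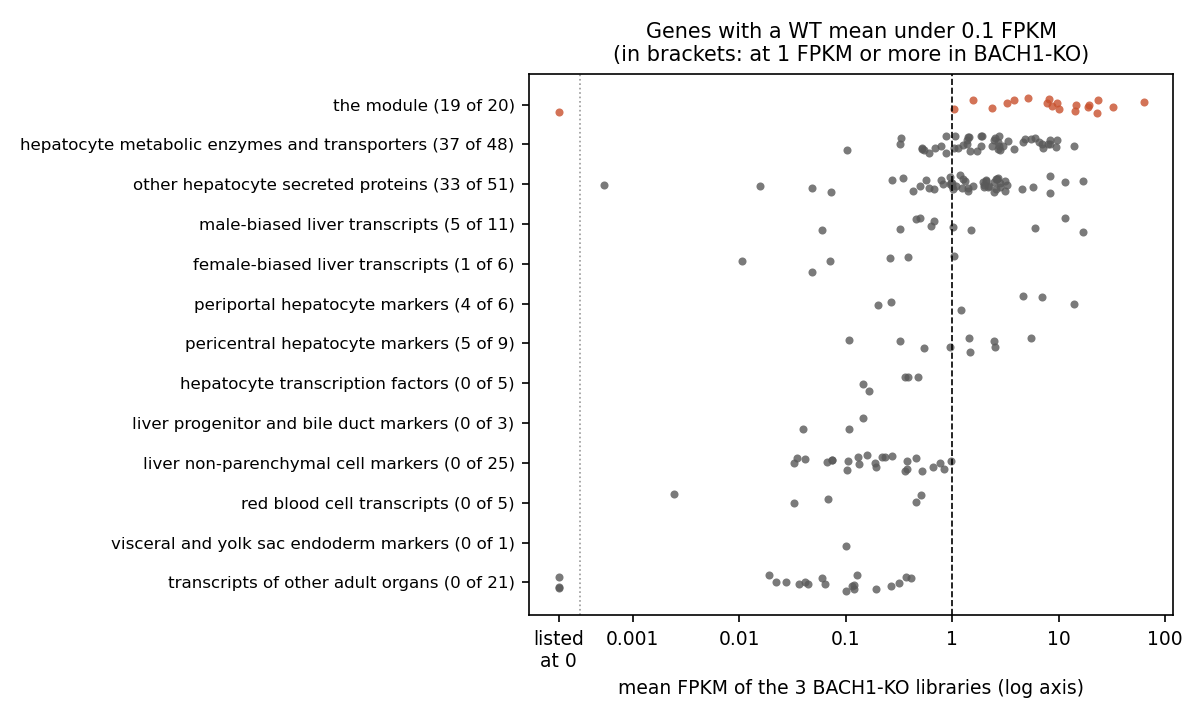
Mean FPKM over the 3 BACH1-KO libraries (log axis) of the genes with a WT mean under 0.1 FPKM, for the module (orange) and each comparison list (grey), 1 point per gene, with the number at 1 FPKM or more (dashed line) of all such genes in brackets. Of the module 19 of 20 reach 1 FPKM, of the enzyme list 37 of 48 and of other adult organs 0 of 21.

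Markers of both ends of the liver lobule moved in both directions. Periportal genes, which mark hepatocytes near the incoming blood, included Cps1 and Arg1 of the urea cycle, which rose from 0.141 to 6.58 FPKM and from 0.0687 to 6.94 FPKM (limma adjusted p = 2.90e-08 and 6.02e-08), and Cyp2f2, which rose from 0.0141 to 4.57 FPKM. Pericentral genes, which mark hepatocytes near the central vein, included Cyp1a2 and Cyp2c29, drug-metabolising P450 enzymes that rose from 0.0531 to 2.54 FPKM and from 0.0528 to 2.45 FPKM (adjusted p = 6.45e-07 and 5.91e-07). Of the 10 tested periportal genes 5 rose and 4 fell, and of the 9 tested pericentral genes 5 rose and 3 fell. Of the former 5 and of the latter 3 passed the filter only through knockout. Cps1, Arg1, Cyp2f2, Cyp1a2 and Cyp2c29 are among them, so their direction was set by the filter and nothing is read from their adjusted p. Among the tested genes with a WT mean of 1 FPKM or more, 4 of 5 periportal genes fell, and 2 of 6 pericentral genes rose and 3 fell. Those that fell included the pericentral Glul, from 85.4 to 55.5 FPKM, and the periportal Gls2, from 18.7 to 13.4 FPKM. The pericentral and periportal genes highest in knockout were Oat, which fell from 82.9 to 65.8 FPKM, and Ass1, at 30.9 ± 3.83 and 29.6 ± 2.10 FPKM (adjusted p = 0.584).

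Transcripts known to be higher in male than in female mouse liver were also measured in knockout. Mup20 and Mup7, urinary proteins of males, were listed at 0 in every WT library and were at 14.5, 10.5 and 9.66 FPKM and at 24.7, 11.4 and 14.2 FPKM in knockout. Cyp2d9, a P450 of male liver, was at 0, 0 and 0.0450 FPKM in WT and 6.20, 6.15 and 5.50 FPKM in knockout. Of the male-biased list 6 of 15 genes were tested, 3 of them only through their knockout level, and 5 rose. Of the female-biased list 8 of 18 genes had a row, none was high enough to test, and the highest was Cyp2c40 at 0.811, 0.772 and 1.50 FPKM in knockout. The difference between these lists was not tested, and Mup genes are close copies that can share reads.

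The transcription factors of hepatocytes had a smaller median log2 difference than the members. The members were chosen with their difference known, so nothing is read from this contrast. Of 20 transcription factor genes 9 were tested: 7 of these rose (2 tested only through knockout), 1 fell and 1 missed the threshold. The list had a median log2 difference of 0.60. Cebpb rose from 2.63 ± 0.183 to 15.1 ± 1.78 FPKM (log2 difference 2.15, adjusted p = 2.78e-07). Esrp2, a splicing regulator on the same list, rose from 0.690 to 2.07 FPKM (adjusted p = 1.01e-04) and Foxa3, a forkhead factor, from 0.844 to 2.19 FPKM (adjusted p = 4.26e-04). Both were tested only through knockout. Hnf4a, named after its values were seen, was at 1.51, 1.98 and 1.21 FPKM in WT and 2.36, 2.17 and 2.35 FPKM in knockout. Cebpb and Hnf4a were therefore above 0 in WT libraries in which most of the module was near 0. Of the 5 factors with a WT mean under 0.1 FPKM, 0 reached 1 FPKM in knockout, a cut that does not count smaller rises. In 15 of the 20 factors every knockout library was above every WT library, a pattern that 38.9% of all 18518 symbols showed.

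Genes of visceral and yolk sac endoderm, the embryonic tissue that makes several of the same plasma proteins, moved in both directions. Among 18 tested genes there were 4 that rose, 10 that fell and 4 that missed the threshold; the median log2 difference was -0.33. Lefty1, an inhibitor of Nodal signalling that stem cells also express, had means of 19.8 FPKM in WT and 73.7 FPKM in knockout (adjusted p = 5.07e-06) and is named because of that difference. Emb, a membrane protein, rose from 48.5 to 95.6 FPKM, while Sparc fell from 92.5 to 48.9 FPKM and Lama1, a basement membrane laminin, from 4.68 to 0.789 FPKM (adjusted p = 1.92e-07, 3.22e-07 and 3.34e-07). The 28 genes with a row summed to between 654 and 690 FPKM in the WT libraries and between 557 and 563 FPKM in the knockout libraries. Liver progenitor and bile duct markers were split: of 10 tested genes 4 rose, among them Cldn6 (35.4 to 74.1 FPKM), 4 fell, among them Krt19 (44.7 to 10.9 FPKM), and 2 did not pass.

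Markers of the other cells of liver and of blood were low, and some were listed at 0 in WT and measured in every knockout library. Of 38 non-parenchymal markers 37 had a row and 9 were tested, of which 3 rose (2 tested only through knockout), 3 fell and 3 did not pass. In 24 of the 37 every knockout library was above every WT library, a pattern that 38.9% of all 18518 symbols showed. The 30 with a WT mean under 1 FPKM summed to between 2.59 and 2.96 FPKM in the WT libraries. Their sum was between 11.6 and 12.9 FPKM in the knockout libraries. The median of low genes over the whole table was also higher there, though single low genes fell. The 5182 genes with a mean under 0.5 FPKM had medians of 0.0217 to 0.0253 FPKM across the WT libraries. Across the knockout libraries these medians were 0.0978 to 0.0990 FPKM. Whether the 30 markers rose more than low genes in general was not tested. In 12 of the 37 the gene was listed at 0 in all WT libraries and above 0 in all knockout libraries, and the share of all genes with this pattern was not computed. Among these 12, Clec4f and Cd5l, known as markers of Kupffer cells, and the complement gene C1qa were chosen after their values were seen. Others of the list differed. Marco was listed at 0 in WT and in the third knockout column, and Cd68 had means of 26.5 FPKM in WT and 18.5 FPKM in knockout. In knockout Clec4f was at 0.628, 0.703 and 0.638 FPKM, Cd5l at 1.08, 0.854 and 0.591 FPKM and C1qa at 1.30, 0.799 and 0.845 FPKM. The hemoglobin gene Hba-a1 was at 1.33, 0 and 0.499 FPKM in WT and 7.00, 6.68 and 7.15 FPKM in knockout (log2 difference 2.39, adjusted p = 5.54e-05). Of 16 red blood cell genes 12 had a row and 3 were tested, of which 2 rose and 1 fell (0 fell without any 1 WT column; both that rose were tested only through knockout), and the 11 with a WT mean under 1 FPKM summed to between 0.988 and 2.58 FPKM in the WT libraries and between 11.7 and 14.6 FPKM in the knockout libraries. The part of these cells in the members' levels was not tested. The 3 rises of the non-parenchymal list became 1 without the second knockout column, and its markers Pecam1 and Cd68, at 44.3 and 26.5 FPKM in WT, are also expressed by stem cell cultures.

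**Figure D4:**
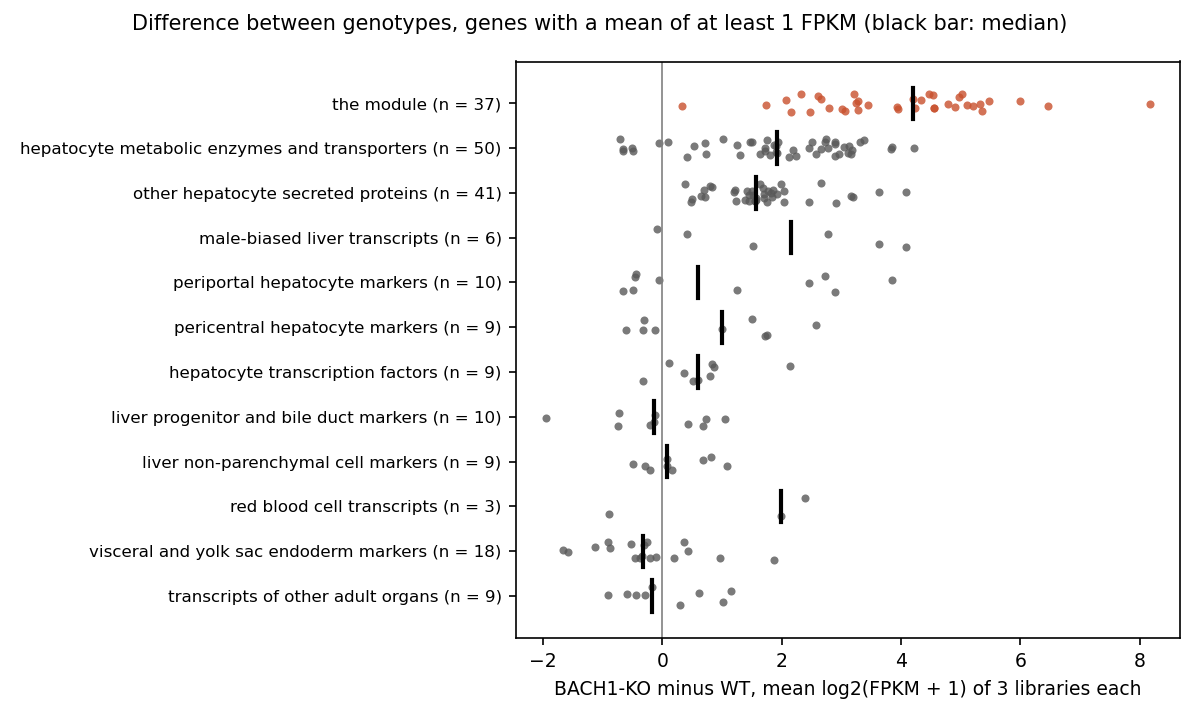
Difference in mean log2(FPKM + 1) between BACH1-KO and WT (3 libraries each) for tested genes (average of 1 FPKM or more) in the module (orange) and the comparison lists (grey), with the median of each as a black bar. Genes low in WT enter only where knockout is high. The medians are 4.19 for the module, 1.93 for the enzymes, 1.57 for the other secreted proteins and -0.33 for visceral and yolk sac endoderm.

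Marker genes of other adult organs (among them muscle, heart, brain, kidney, gut, lung, pancreas, skin, thyroid, pituitary and fat) were mostly low in both genotypes or moved both ways. Of 53 listed genes 44 had a row and 9 were tested, of which 3 rose, 5 fell and 1 did not pass, with a median log2 difference of -0.17; without the first WT column 3 fell. Mbp, a myelin gene, rose from 1.32 to 4.14 FPKM and Tnni3, of heart muscle, fell from 3.90 to 1.59 FPKM (adjusted p = 3.65e-06 and 1.14e-05). Mylpf, the highest of the list in knockout, had means of 110 FPKM in WT and 97.1 FPKM in knockout. Ins2, which did not pass, was at 0, 0 and 11.6 FPKM in WT and 0, 44.7 and 0 FPKM in knockout. Of the 21 genes with a WT mean under 0.1 FPKM, 0 reached 1 FPKM in knockout and 3 were listed at 0 in all knockout libraries. The 35 genes with a WT mean under 1 FPKM summed to between 3.67 and 4.95 FPKM in the WT libraries and between 7.23 and 8.22 FPKM in the knockout libraries. The intestinal genes Fabp2 and Sis and the pancreatic genes Cpa1 and Ctrb1, 4 genes of the list, were listed at 0 in WT and above 0 in every knockout library. Myh6, of heart muscle, had means of 0.241 FPKM in WT and 1.45 FPKM in knockout, and Pnlip, pancreatic lipase, of 0.152 and 0.883 FPKM; these 6 are named because of their values.

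Among genes that are not members, the 15 with the highest knockout mean among those under 0.5 FPKM in WT included 10 from the hepatocyte lists, among them Ces1c, a carboxylesterase, at 9.02, 9.28 and 10.7 FPKM in knockout. The others were Gm2083 (30.4, 26.1 and 22.3 FPKM), Car3 (7.92, 8.54 and 9.54 FPKM) and the short RNAs Snora64, Snora26 and Snord15b. The 3 short RNAs were each listed at 0 in at least 1 knockout library, unlike 39 of the members. Adult hepatocyte transcripts, with low levels of some markers of Kupffer cells and of hemoglobin transcripts, were thus measured in all 3 knockout libraries. In 24 of the 37 non-parenchymal markers every knockout library was above every WT library, as in 38.9% of all symbols. The rest of that list fell or overlapped between the genotypes. RNA from another source that entered only the knockout libraries cannot be told apart, in this design, from transcription in the knockout cells. Its part in these levels was not tested.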

How the data were processed

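The deposited table gives FPKM for each gene symbol in 3 WT and 3 BACH1-KO columns; the authors made these values with Cufflinks on mouse build mm10, per the submitters' processing notes. The aligner and annotation, not given in the sources used here, could affect the division of reads among close gene copies. FPKM is scaled to transcript length and mapped fragments, which ties every gene's value to the rest of its library, and an exact 0 can be a failed estimate. The columns name the genotype but match no sample title, and each was used as a replicate without a number. Another 23 rows with a number for a symbol (0.0987% of FPKM) were left out. The test was limma 3.58.1 under R 4.3.3 on log2(FPKM + 1), two-sided, with a trended prior variance, on genes averaging 1 FPKM or more, with Benjamini-Hochberg adjustment over all of them; called means an adjusted p under 0.05, and SE is the moderated one. A log2 difference on this scale understates the change of low genes. The script was tested on simulated data. The members and all lists were chosen with earlier results of these data known. Named were all members, up to 4 genes per list with the smallest adjusted p, the list gene with the highest knockout mean, and the 15 further genes highest in knockout among those under 0.5 FPKM in WT; any other gene is named with its values already known, and some genes the rule names are not reported here. Serpina1 copies were compared by coding sequence (GENCODE M21, Biopython 1.88) because protein sequences were not used here. Alternatives were a pseudocount of 0.1, no filter or one at 5 FPKM, median-of-ratios scaling, a constant prior variance and leaving out each column.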

Additional observations from a re-analysis of the deposited data

How the results depend on the processing

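In 39 members every knockout library stayed above every WT library under median-of-ratios scaling and without any 1 column, and the median log2 difference of the 40 members, 3.94, ranged from 3.92 to 3.96 without 1 column and was 6.49 with a pseudocount of 0.1, which raises the difference of genes near 0 and moved the values of 39 members. The knockout share of the module was 0.130% without Alb and 0.172% without the members at 1 FPKM or more in WT, and the WT share without the latter was 0.000968%. The filter on low values changed counts because it sets how many genes are tested. With no filter the number called higher was 15 for hepatocyte transcription factors, 68 for enzymes, 63 for other secreted proteins, 7 for visceral endoderm, 23 for non-parenchymal cells, 5 for red blood cells (2 lower), 14 for other organs, 14 for male-biased, 5 for female-biased, 8 for periportal and 11 for pericentral genes. With a filter at 5 FPKM it was 1, 6, 8, 2, 1, 0, 0, 3, not testable, 1 and 1 in the same order, and 2942 over all genes; 3 enzymes, 6 endoderm, 0 red blood cell and 1 other organ genes were then called lower. Without 1 column the non-parenchymal genes called higher numbered 1 to 4 (1 without the second knockout column), the red blood cell genes called lower 0 to 1 (0 without any 1 WT column) and the other organ genes called lower 3 to 5 (3 without the first WT column). Ass1, not called, had log2 differences from -0.15 (without the second WT column) to 0.023 (without the first WT column). All other values for the lists and named genes kept their direction and their side of the threshold, or stayed within 1.5 times for counts. No paired analysis was possible because the columns carry no replicate number tied to the labels. The precision of WT traces is limited by depth, which is unknown in absolute terms.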
